A study of Mus musculus with 2 samples.

Results

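Oxidative phosphorylation genes encode the respiratory chain and ATP synthase of the inner mitochondrial membrane. They were taken by symbol: all genes starting with mt-Nd, mt-Co, mt-Atp, mt-Cytb, Nduf, Uqcr or Atp5, the Cox4 to Cox8 families, and Sdha to Sdhd. This gave 105 of the 41605 genes in the count matrices, and 0 were left out as pseudogenes. Of these, 13 are encoded by the mitochondrial genome: 7 complex I subunits, 1 complex III subunit, 3 complex IV subunits and 2 complex V subunits. The other 92 are nuclear: 36 complex I subunits, 8 complex I assembly factors, 4 complex II subunits, 8 complex III subunits, 20 complex IV genes and 16 complex V genes. Cox8c, a complex IV subunit, was the 1 nuclear member with 0 UMIs in both libraries.

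The cells came from hippocampi of wild-type adult male C57BL/6 mice aged 10 weeks, with 3 mice pooled in each of 2 libraries. The series set digestion with enzymes, 30 min at 37 °C, against mechanical dissociation at 4 °C. No label used here says which library had which, so neither library was given a group and the libraries are set side by side, not compared. RNA was counted with 10x Genomics 3' chemistry, version 3, as unique molecular identifiers (UMIs, 1 for each captured RNA molecule). Each library is a single pool, so no test was made, and every 95% interval below covers counting error only.

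The complexes pass electrons from NADH and succinate to oxygen, pump protons across the inner membrane, and let complex V make ATP from the gradient. Subunits of 4 of the 5 complexes come from both genomes, whereas complex II is nuclear throughout. Several complex IV subunits exist as pairs, a broadly used form and one restricted to certain tissues such as muscle. In the brain, neurons are known for a high demand for respiration, and choroid plexus epithelium, which secretes cerebrospinal fluid, is known to be rich in mitochondria.

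Library 1 held 12306 cell barcodes and 18783691 UMIs, and library 2 held 6448 barcodes and 29356086 UMIs. At least 1000 UMIs and 500 genes were found in 7644 and 3780 of them, with medians of 1741 and 5433 UMIs, and 19 barcode sequences occurred in both libraries. Cells were put in classes by marker genes, and 80.9% of the deep-enough cells in library 1 and 87.6% in library 2 received one. Classes are called "-like" because they rest on markers alone. Among the 10 genes that most set a class of at least 50 cells apart, 1 (neuron-like cells of library 1) to 9 were its own markers and 0 were markers of another class. The cells were chosen by these same markers, so these counts are no independent check of the classes. More than 10% mitochondrial UMIs were seen in 5.47% of these cells in library 1 and 37.5% in library 2. No limit was set on that share, since it is itself the measure.

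The mitochondrial members differed widely between classes in both libraries. In library 1, choroid plexus-like cells (67 cells) had 11.19% of all UMIs in these 13 genes (95% interval 11.08 to 11.30), against 2.46% (2.44 to 2.48) in 735 microglia-like cells. In library 2 the same classes had 19.96% (19.91 to 20.02; 186 cells) and 5.68% (5.67 to 5.70; 2109 cells). Choroid plexus-like cells thus stood above microglia-like cells in each library, by 4.55 and 3.51 times. In cells of at most 10% mitochondrial UMIs the gap was smaller, with 6.38% against 2.37% in library 1 and 5.13% against 4.22% in library 2, where choroid plexus-like cells then ranked below all compared classes but neuron-like and microglia-like cells. Oligodendrocyte-like cells, the myelinating glia, had 7.41% in library 1 (115 cells) and 8.49% in library 2 (74 cells). Astrocyte-like cells had 4.37% (192 cells) and 15.34% (56 cells), while the median cell had 2.70% and 10.7%. Both glial classes were above microglia-like cells in both libraries.

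Vascular classes passed 50 cells only in library 2. There, pericyte or smooth muscle-like cells had 8.05% (7.97 to 8.13; 105 cells) and endothelial-like cells 6.46% (6.42 to 6.49; 229 cells), against 5.68% in microglia-like cells. Erythrocyte-like cells, chosen for haemoglobin, were lowest of all classes, with 1.37% in 226 cells of library 2. Haemoglobin took 94.3% of their nuclear-encoded UMIs, so the choice of these cells itself lowers the share. Mature red cells have no mitochondria, and the part of that in the share was not tested.

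**Figure D1:**
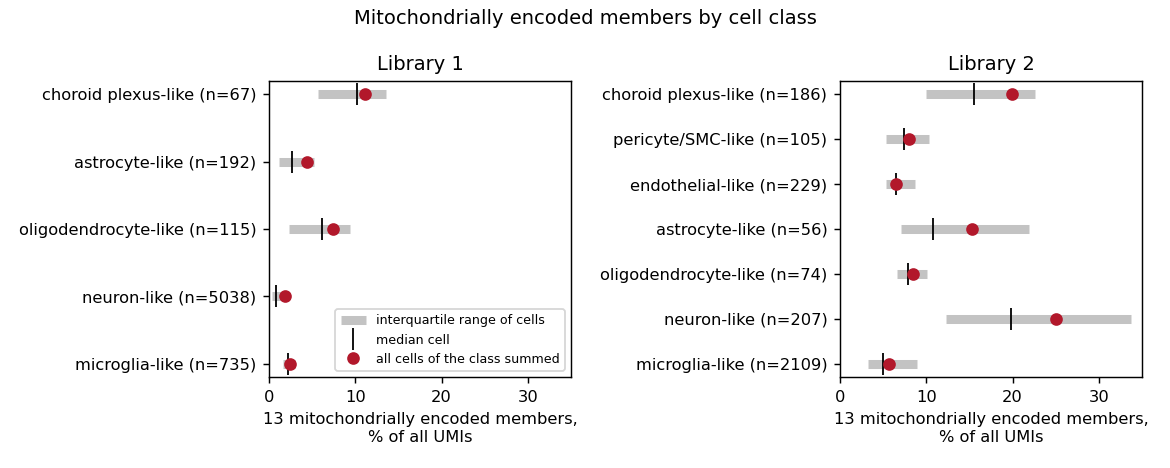
Share of all UMIs in the 13 mitochondrially encoded members (x axis, percent) for each marker-gated class (rows), library 1 left and library 2 right. Red points sum all cells of a class, black ticks mark the median cell and grey bars the interquartile range over cells; the neuron-like point lies at 1.88% in library 1 and 24.99% in library 2.

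Neuron-like cells had the lowest share of the classes plotted in library 1 and the highest in library 2. Their summed share was 1.88% (1.88 to 1.89; 5038 cells) in library 1 and 24.99% (24.85 to 25.13; 207 cells) in library 2, and the median cell had 0.82% and 19.8%. Other measures differed alongside. Malat1, an RNA that stays in the nucleus, made up 15.4% of nuclear-encoded UMIs in neuron-like cells of library 1 and 4.00% in library 2. Neuron-like cells had a median of 1700 UMIs in library 1 and 1365 in library 2, while microglia-like cells had 2204 and 5823. The part of depth and nuclear RNA in these shares was not tested. With cells over 10% mitochondrial UMIs left out, 33 neuron-like cells remained in library 2, and neuron-like cells then had the lowest share there of the classes set against microglia-like cells, which leave out erythrocyte-like cells.

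Within library 1, types of neuron differed in the mitochondrial members. Granule neuron-like cells of the dentate gyrus had 3.01% (2.98 to 3.04; 729 cells), interneuron-like cells 2.07% (2.03 to 2.12; 210 cells), CA3 neuron-like cells 1.72% (1.70 to 1.74; 706 cells) and CA1 neuron-like cells 1.06% (1.04 to 1.08; 400 cells). These intervals did not overlap. The median cell ran in another order, with 1.52% in interneuron-like, 1.02% in granule neuron-like, 0.70% in CA3 neuron-like and 0.58% in CA1 neuron-like cells. Over 10% was found in 8.50% of granule neuron-like cells, and in 1.43% of interneuron-like cells.

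Each of the 13 mitochondrial genes is transcribed as part of a long precursor, and tRNAs between the genes mark most cutting points. No tRNA separates mt-Atp8 from mt-Atp6, both ATP synthase subunits, or mt-Nd4l from mt-Nd4, both complex I subunits. The reading frames overlap instead, by 43 bases for the first pair and 7 for the second. The stretches below come from the GENCODE transcripts on GRCm38, forward strand, with the shared bases in capitals and 15 bases of flank on each side. They lie at chrM:7912-7984 and chrM:10152-10188. They are shown because the bases in capitals belong to both genes of a pair. Whether any read lies wholly inside them was not checked. The part of this overlap in the low shares of mt-Atp8 and mt-Nd4l was not tested.
mt-Atp8 and mt-Atp6: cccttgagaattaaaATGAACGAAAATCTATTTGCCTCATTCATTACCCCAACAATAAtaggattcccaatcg
mt-Nd4l and mt-Nd4: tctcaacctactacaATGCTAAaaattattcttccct

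The makeup of the mitochondrial UMIs was alike across classes of a library for most genes. The core subunits of cytochrome c oxidase, complex IV, made up 45.8% of them in microglia-like cells of library 1 (mt-Co1 11.9%, mt-Co2 13.9%, mt-Co3 19.9%), and mt-Atp6 16.4%. In library 2 microglia-like cells had 13.2% mt-Co1, 12.8% mt-Co2, 18.7% mt-Co3 and 17.6% mt-Atp6. The cytochrome b gene mt-Cytb held 12.01% and 11.3%. Its lowest share over the classes was 8.58%, in choroid plexus-like cells of library 1, against 11.5% in the same class of library 2.

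Among the complex I genes, mt-Nd1, mt-Nd2 and mt-Nd4 held 6.195%, 7.88% and 9.09% of mitochondrial member UMIs in microglia-like cells of library 1. They held 6.32%, 7.10% and 7.94% in library 2. The small gene mt-Nd3 held between 0.956% and 1.32% in the classes of library 1, and between 2.34% and 3.33% in those of library 2, so the ranges did not overlap. The same held for mt-Atp8, at 0.0232% to 0.0537% and 0.122% to 0.251%, and for mt-Nd4l, at 0.332% to 0.437% and 0.516% to 0.851%. For mt-Nd5 the ranges overlapped, at up to 0.929% in library 1 and from 0.845% in library 2. The member encoded on the opposite strand to the rest, mt-Nd6, stayed at or below 0.130% in every class. Oligodendrocyte-like cells had the lowest shares of mt-Nd2 in both libraries, 5.17% and 4.79%, against 7.88% and 7.10% in microglia-like cells.

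The level of nuclear members is given in CPM, UMIs scaled to a common total of nuclear-encoded UMIs of the class, so that the mitochondrial share does not set them. Choroid plexus-like cells had the highest summed level in both libraries. In library 1 they had 51987 CPM (51134 to 52851), against 9487 CPM (9337 to 9638) in microglia-like cells. The library 2 values were 62994 CPM (62612 to 63379), against 10798 CPM (10737 to 10859). The summed level was thus 5.48 and 5.83 times that of microglia-like cells. Transthyretin RNA, Ttr, took 34.6% and 26.4% of nuclear-encoded UMIs in choroid plexus-like cells, and without Ttr in the total the nuclear members reached 79528 and 85589 CPM.

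Among classes of at least 50 cells, neuron-like cells had the lowest summed level in both libraries apart from erythrocyte-like cells. In library 1 the sum was 3762 CPM (interval 3723 to 3801). It was 9414 CPM (9041 to 9797) for library 2. Astrocyte-like cells had 6674 CPM in library 1 and 19209 CPM in library 2. Oligodendrocyte-like cells had 13556 and 18875 CPM. The library 1 values of both depended on the cells kept and changed sides of microglia-like cells. Astrocyte-like cells had 15338 CPM with at least 2000 UMIs (16 cells) and 10411 CPM under the stricter gate (48 cells), and oligodendrocyte-like cells had 7410 CPM with cells down to 500 UMIs and 8973 CPM with equal weights. In library 2 the intervals of astrocyte-like (18567 to 19867) and oligodendrocyte-like cells (18516 to 19238) overlapped. The astrocyte-like value there also depended on the cells kept. It was 16186 CPM with at most 20% mitochondrial UMIs (37 cells) and 15888 CPM with at most 10% (19 cells). In cells whose class was also the majority class of their cluster (49 cells) it was 16854 CPM. In each of these it lay below endothelial-like and above microglia-like cells. From 40% mitochondrial UMIs on, 7 of the 56 cells had 53405 CPM. Pericyte or smooth muscle-like cells of library 2 had 22026 CPM and endothelial-like cells 17471 CPM. Erythrocyte-like cells of library 2 had 919 CPM, with haemoglobin at 94.3% of nuclear-encoded UMIs. Without haemoglobin in the total they had 16216 CPM, against 10802 CPM in microglia-like and 9428 CPM in neuron-like cells.

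Levels of the 4 neuron types in library 1 formed 2 pairs. Interneuron-like cells had 4461 CPM (4254 to 4675) and granule neuron-like cells 4282 (4165 to 4402). CA3 neuron-like cells had 3463 (3376 to 3552) and CA1 neuron-like cells 3419 (3295 to 3545). Intervals overlapped within each pair and not between the pairs.

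**Figure D2:**
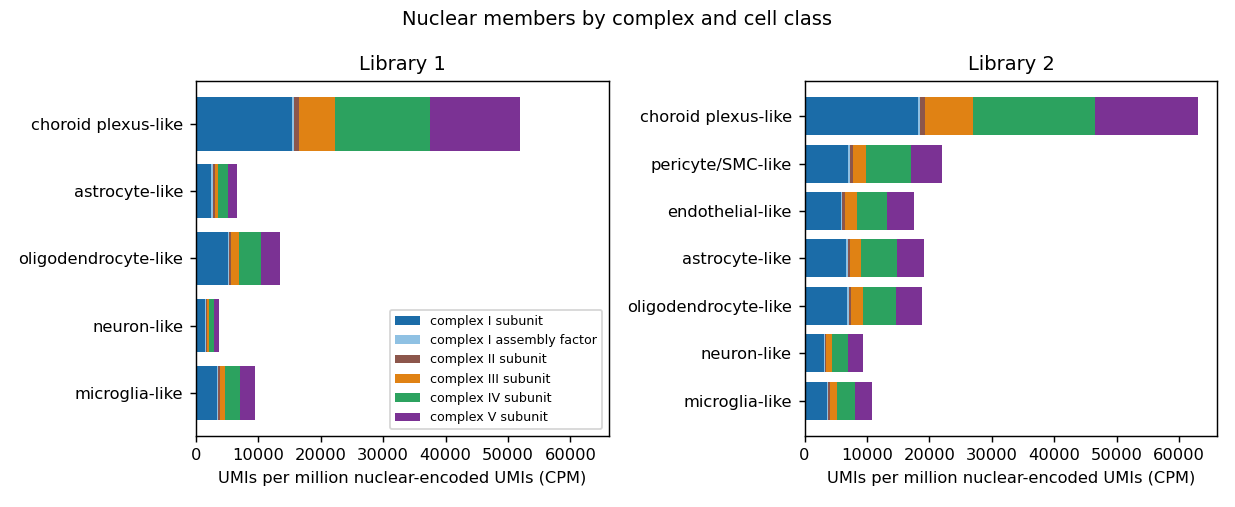
Summed level of the 92 nuclear members (x axis, CPM) for each class (rows), split by complex in colour, library 1 left and library 2 right. Choroid plexus-like cells reach 51987 and 62994 CPM, above every other class shown.

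The complexes took similar parts of the summed level in most classes. In microglia-like cells complex I subunits held 35.6% and 33.6% of nuclear member UMIs, complex III 9.56% and 10.0%, complex IV 24.9% and 27.0%, and complex V 24.98% and 24.7%. Choroid plexus-like cells had less in complex I subunits, 29.5% and 28.8%, and more in complex III, 11.2% and 12.3%. Complex I assembly factors held 7.39% in neuron-like and 4.83% in astrocyte-like cells of library 1, against 2.15% in microglia-like cells. In library 2 they held 1.58% in neuron-like and 1.36% in astrocyte-like cells, against 1.80% in microglia-like cells.

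Member by member, each class was set against microglia-like cells of its library, which were numerous in both. The ratio was taken as log2((CPM + 1)/(CPM + 1)) for genes with at least 50 UMIs over both classes, and 2-fold was used as the mark of size. In choroid plexus-like cells of library 1, 70 of the 79 members that passed the count minimum were at least 2-fold higher and 0 were 2-fold lower. Over all genes, 10.4% were at least 2-fold higher and 52.5% lower. In library 2 it was 76 of 88 members, with 1 lower, beside 17.1% and 39.4% of all genes. The median over members was 2.32 in library 1 and 2.20 in library 2 on the log2 scale, beside -1.13 and -0.59 over all genes. Counting only members with 50 UMIs in microglia-like cells alone, a filter that choroid plexus-like cells cannot influence, 68 of 76 and 74 of 86 were at least 2-fold higher. Of the members 2-fold higher in one library, 69 were so in both, which is 98.6% of those of library 1 and 90.8% of those of library 2. The same overlap over all genes was not counted, so these shares show no trait particular to the members.

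All complexes had members at least 2-fold higher. In libraries 1 and 2, 8 of 8 complex III subunits were at least 2-fold higher in both, with medians of 2.54 and 2.60. Complex V had 14 of 14 and 15 of 16, and complex IV 12 of 13 and 14 of 16. Of the complex IV members, Cox6b2 in library 1 and Cox8b and Cox7a1 in library 2 passed the count minimum only through choroid plexus-like cells, as did Ndufa1 of complex I in library 1. Complex I subunits had 32 of 36 and 33 of 36, with medians of 2.03 and 2.11. Complex II, which also serves the citric acid cycle, had 2 of 4 in each library, with medians of 1.09 and 0.96. Assembly factors of complex I had 2 of 4 and 4 of 8, with medians of 0.82 and 1.01.

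The classes can also be ranked for each member. Of 84 members with at least 50 UMIs over the 5 classes of library 1, 77 (91.7%) had their highest level in choroid plexus-like cells, beside 10.7% of all genes. In library 2 it was 78 of 90 (86.7%) over 7 classes, beside 9.62%. Neuron-like cells held the lowest level of 68 members in library 1 and 51 in library 2, beside 12.04% and 23.6% of all genes.

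**Figure D3:**
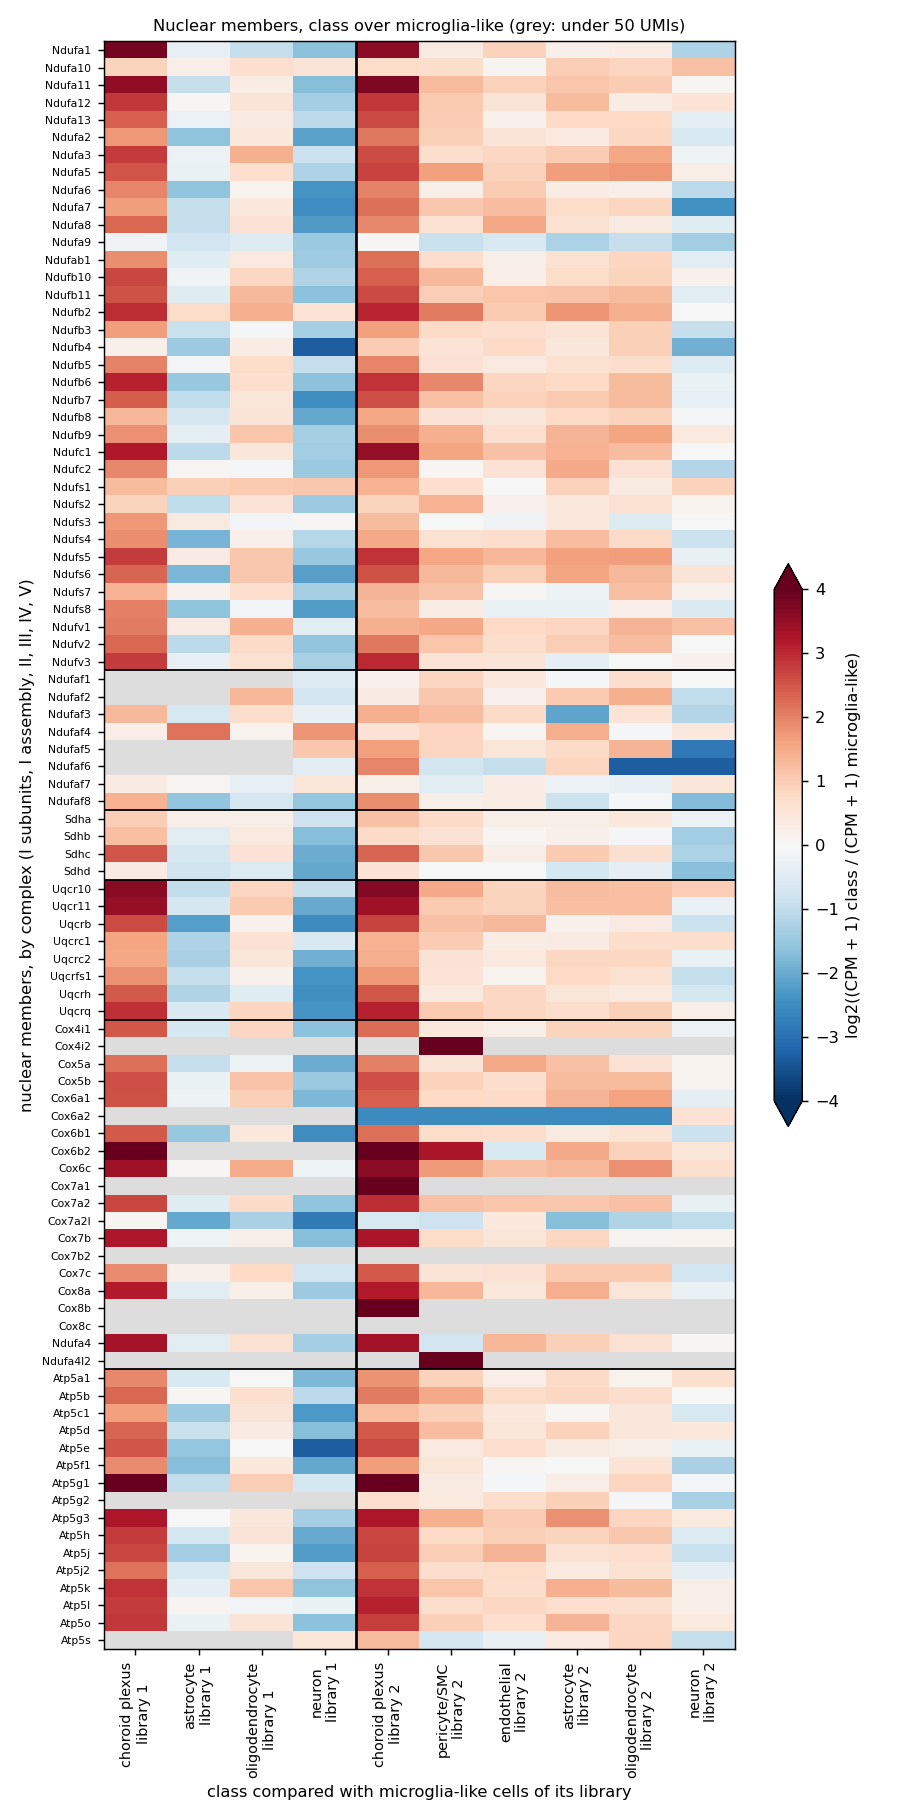
Each nuclear member (rows, by complex) in each class against microglia-like cells of the same library (columns), as log2((CPM + 1)/(CPM + 1)). Red is higher and blue lower in the class, grey marks members under 50 UMIs; the choroid plexus-like columns are red in 70 of 79 and 76 of 88 members at 2-fold, and the Cox6a2 row is set by classes at 0 UMIs.

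Tissue-restricted subunits led the choroid plexus-like cells. Cox8b, the complex IV subunit 8 form known from muscle, had 41 and 481 UMIs there (150.6 and 291.9 CPM), against 1 and 14 UMIs (0.617 and 1.24 CPM) in microglia-like cells of libraries 1 and 2. Under the count minimum in library 1, the ratio was 243.9 there (interval 41.4 to 9865). For library 2 it was 234.5 (138.4 to 432.2). Cox7a1, the heart and muscle form of subunit 7a, had 77.1 and 143.8 CPM, against 0 and 1.33 CPM. With 0 UMIs in library 1 microglia-like cells and a floor of 3 UMIs per library, it was at least 41.6-fold higher; in library 2 it was 107.8 times higher (64.1 to 195.7). Cox6b2, the subunit 6b form known from testis, had 275.5 and 272.5 CPM, against 5.56 and 5.25 CPM, 49.6 (24.8 to 112.6) and 51.9 times higher (39.5 to 69.3).

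The broadly used partners were present in the same cells. Cox8a had 2769 and 3709 CPM in choroid plexus-like cells, against 306.2 and 406.3 CPM in microglia-like cells. Cox7a2 had 907.2 and 1335 CPM, against 140.8 and 170.1, and Cox6b1 771.3 and 1058 CPM, against 138.9 and 227.6. Each common form was also higher in choroid plexus-like cells, by 4.65 to 9.13 times. In library 2, 79 of 186 choroid plexus-like cells (42.5%) had a Cox8b UMI, and 16.1% (11.2 to 22.2) after every cell was thinned to 1000 UMIs. Microglia-like cells, a type not known for Cox8b, had 14 of 2109 (0.664%), and 0.332% after thinning, with median depths of 5900.5 UMIs in choroid plexus-like and 5823 in microglia-like cells.

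Other leading members of these cells belong to complexes I and V. Atp5g1, 1 of 3 genes for subunit c of the ATP synthase ring, had 2461 and 2309 CPM, against 128.4 and 142.6 CPM in microglia-like cells, 19.2 (16.4 to 22.5) and 16.2 times higher (15.3 to 17.2). Its sister Atp5g3 had 569.3 and 750.7 CPM, against 59.9 and 79.7, and Atp5g2 had 7.35 and 18.2 CPM, against 2.47 and 11.1. The 3 genes encode the same mature protein, and whether any reads were shared between them was not checked. Ndufa1, an accessory subunit of complex I, was 14.6 times higher in library 1 (10.4 to 20.8), with 440.7 CPM against 30.3 CPM. Ndufa11, another accessory subunit, was 13.6 times higher in library 2 (12.5 to 14.8), with 1060 CPM against 78.0 CPM.

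A few members were not higher in choroid plexus-like cells. Ndufa9, an accessory complex I subunit, had 80.8 and 85.0 CPM, against 89.5 and 82.8 CPM, ratios of 0.903 (0.549 to 1.42) and 1.03 (0.853 to 1.23). Cox7a2l, which helps join complexes III and IV in supercomplexes, had 308.5 and 188.1 CPM, against 287.7 and 294.8 CPM. Its ratio was 1.07 in library 1, with an interval of 0.840 to 1.36. In library 2 the ratio was 0.638, between 0.566 and 0.717. Cox6a2 was the 1 member 2-fold lower in library 2. It had 0 UMIs in choroid plexus-like cells, against 55 UMIs (4.89 CPM) in microglia-like cells, at least 2.69-fold lower at the same floor.

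Start site sequences were looked at for the pairs that separate choroid plexus-like cells. RefSeq windows of 300 bases on GRCm38.p6, 250 before and 50 after the start, were matched for 74 of the 92 nuclear members (79 windows). They are printed for Cox8b and Cox7a1 and their common partners Cox8a and Cox7a2, 5′ to 3′ on the gene's strand, with any of the 5 motifs below in capitals. Cox8b lies at chr7:140900397-140900696 on the minus strand, Cox8a at chr19:7217567-7217866 on the minus strand, Cox7a1 at chr7:30183921-30184220 on the plus strand and Cox7a2 at chr9:79759804-79760103 on the minus strand.
Cox8b: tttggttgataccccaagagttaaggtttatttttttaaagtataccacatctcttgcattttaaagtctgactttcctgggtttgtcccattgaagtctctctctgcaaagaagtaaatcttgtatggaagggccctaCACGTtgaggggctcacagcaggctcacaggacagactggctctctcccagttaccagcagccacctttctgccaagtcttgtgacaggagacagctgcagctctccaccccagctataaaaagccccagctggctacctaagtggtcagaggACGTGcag
Cox8a: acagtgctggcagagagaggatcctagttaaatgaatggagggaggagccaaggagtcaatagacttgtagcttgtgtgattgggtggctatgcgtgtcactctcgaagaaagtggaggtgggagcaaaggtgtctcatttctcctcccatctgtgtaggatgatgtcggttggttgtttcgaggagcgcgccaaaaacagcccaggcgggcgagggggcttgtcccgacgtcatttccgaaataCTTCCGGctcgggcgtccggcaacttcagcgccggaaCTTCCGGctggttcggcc
Cox7a1: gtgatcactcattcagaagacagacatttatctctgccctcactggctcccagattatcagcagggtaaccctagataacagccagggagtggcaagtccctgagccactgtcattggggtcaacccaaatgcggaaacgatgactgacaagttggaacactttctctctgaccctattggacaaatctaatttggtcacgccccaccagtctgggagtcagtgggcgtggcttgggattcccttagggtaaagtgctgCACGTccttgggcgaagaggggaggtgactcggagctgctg
Cox7a2: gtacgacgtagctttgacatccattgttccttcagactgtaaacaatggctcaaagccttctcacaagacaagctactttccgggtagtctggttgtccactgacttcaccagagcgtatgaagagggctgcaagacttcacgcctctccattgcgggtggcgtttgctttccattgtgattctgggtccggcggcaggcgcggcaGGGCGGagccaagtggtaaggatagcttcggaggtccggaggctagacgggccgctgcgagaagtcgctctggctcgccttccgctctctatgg

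Motifs were searched on both strands, and matches of different motifs may overlap. The NRF1 core motif was in 25.3% of member windows, beside 4.60% of all 32851 windows. CCGGAAG, an ETS core that GABP binds, was in 22.8%, beside 8.86%, and AAGGTCA, a site of estrogen-related receptors, in 10.1%, beside 4.72%. GGGCGG, a GC box, was in 43.0%, beside 35.7%, and ACGTG, the core of the hypoxia response element, in 22.8%, beside 19.6%. Cox8a held CCGGAAG at 2 places and Cox7a2 held GGGCGG, whereas Cox8b and Cox7a1 held ACGTG and none of the other 4. The third pair, not printed, differed from these: the restricted form Cox6b2 held GGGCGG and no ACGTG, and Cox6b1 held CCGGAAG.

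**Figure D4:**
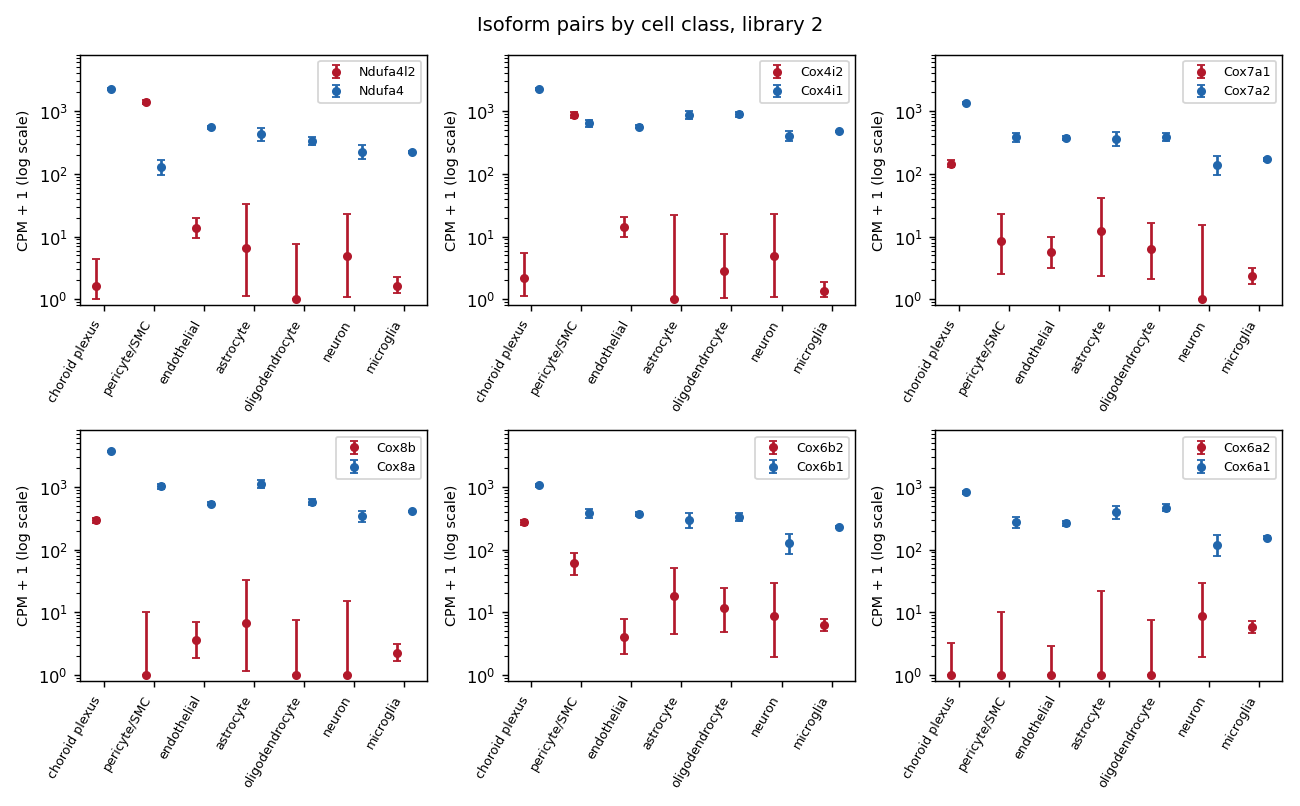
Level of 6 pairs of subunit forms in the classes of library 2, as CPM + 1 on a log scale, with exact 95% counting intervals. The restricted form is red and the common form blue; Ndufa4l2 and Cox4i2 stand out in pericyte or smooth muscle-like cells (1399 and 858.6 CPM), and Cox8b, Cox7a1 and Cox6b2 in choroid plexus-like cells (291.9, 143.8 and 272.5 CPM).

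Pericyte or smooth muscle-like cells, the contractile cells of vessel walls, had another set of forms. Ndufa4l2, a relative of Ndufa4 known as a hypoxia-inducible gene, had 567 UMIs (1399 CPM) there, against 7 UMIs (0.622 CPM) in microglia-like cells. The ratio was 2247 (1084 to 5616). Cox4i2, the form of subunit 4 known from lung and oxygen sensing, had 348 UMIs (858.6 CPM), against 4 UMIs (0.356 CPM), a ratio of 2414 (934.4 to 8909). Ndufa4, the common form, was lower in the same cells, with 128.3 CPM against 221.2 CPM, a ratio of 0.580 (0.432 to 0.763). Cox4i1 was not, with 639.0 CPM against 474.8 CPM, 1.35 times (1.18 to 1.52).

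These forms were found in most cells of the class. A Ndufa4l2 UMI was seen in 91 of 105 pericyte or smooth muscle-like cells (86.7%), and in 69.5% (59.8 to 78.1) after thinning to 1000 UMIs. In microglia-like cells it was 7 of 2109 (0.332%), and 0 of 2109 after thinning. At the thinned depth of 1000 UMIs this allows a share of up to 0.142% of cells with a UMI, which is no limit at full depth. Cox4i2 was in 82.9% and, thinned, 47.6% (37.8 to 57.6), against 0.190% and 0.0474%. Ndufa4, in contrast, was in 8.57% of thinned pericyte or smooth muscle-like cells (3.99 to 15.7), against 18.4% (16.8 to 20.1) of thinned microglia-like cells. The median depth was 3991 UMIs in the first class and 5823 in the second.

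Across the other classes of library 2 both forms were low. Endothelial-like cells came next, with 12.9 CPM Ndufa4l2 and 13.4 CPM Cox4i2. Their pericyte or smooth muscle markers summed to 639.7 CPM, with 0 of 10 at 0, against 36053 CPM in pericyte or smooth muscle-like cells and 27.1 CPM in microglia-like cells. Whether RNA from pericytes gives the counts in endothelial-like cells was not tested. Promoter windows of Ndufa4l2 and Cox4i2 were not used here.

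Over all members, 35 of 88 were at least 2-fold higher in pericyte or smooth muscle-like cells, beside 19.9% of all genes, and 1 was lower, beside 23% of all genes. Ndufa4l2 and Cox4i2 passed the count minimum only through this class, and with 50 UMIs in microglia-like cells alone it was 33 of 86. The median was 0.86, beside 0.11. Cox6b2 had 59.2 CPM, against 5.25 CPM, 11.3 times higher (6.71 to 18.4), on 24 UMIs. Ndufb2 and Ndufb6, accessory subunits of complex I, were 4.32 (3.48 to 5.32) and 3.86 times higher (2.93 to 4.996), with 259.1 against 59.9 CPM and 162.8 against 42.2 CPM. Ndufa9 was lower, with 44.4 against 82.8 CPM, as was Cox7a2l, with 165.3 against 294.8 CPM. The 1 member past 2-fold lower was Cox6a2, at 0 UMIs, which the depth of 105 cells cannot show.

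Endothelial-like cells had 14 of 86 members at least 2-fold higher, beside 17.5% of all genes, and 1 lower, beside 21.2%, with a median of 0.62, beside 0.01. That share of members, 16.3%, was near the share of all genes, while 77 of the 86 lay above microglia-like cells by any amount. Ndufa8, an accessory complex I subunit, had 261.7 CPM, against 88.3, 2.96 times higher (2.66 to 3.30). Cox5a of complex IV had 320.1 CPM, against 110.9, 2.89 times (2.62 to 3.18), and Atp5j of complex V 521.3 CPM, against 203.8, 2.56 times (2.37 to 2.76). Cox7a2l was higher here, with 396.6 CPM against 294.8 CPM, 1.35 times (1.24 to 1.46).

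Oligodendrocyte-like cells had 13 of 79 members at least 2-fold higher in library 1, beside 15% of all genes, and 25 of 86 in library 2, beside 17.5%. In library 1, 1 member was at least 2-fold lower, beside 27.5%, and in library 2 it was 3, beside 30.6%. The medians were 0.50 and 0.74, beside -0.16 and -0.18. The library 1 median was -0.46 with cells down to 500 UMIs and -0.14 with every cell given the same weight. Cox6c, a complex IV subunit, led in both libraries, with 387.4 and 832.4 CPM, against 138.9 and 232.5 CPM in microglia-like cells, 2.79 (2.18 to 3.55) and 3.58 times higher (3.24 to 3.95). Ndufa5, Ndufs5 and Ndufb9, all of complex I, were 3.36 (2.78 to 4.05), 3.19 (2.69 to 3.75) and 2.98 times higher (2.58 to 3.43) in library 2. Cox6a1 was 3.03 times higher there (2.66 to 3.46).

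Astrocyte-like cells lay on different sides of microglia-like cells in the 2 libraries. In library 1, 21 of 78 members were at least 2-fold lower, beside 38% of all genes, and 1 was higher, beside 14.2%, with a median of -0.63, beside -0.53. In library 2, 29 of 86 were at least 2-fold higher, beside 20.3%, and 4 were lower, beside 30.5%, with a median of 0.81, beside -0.15. Malat1 made up 26.7% of nuclear-encoded UMIs in astrocyte-like cells of library 1 and 13.04% in library 2, against 4.48% and 3.48% in microglia-like cells. The median depth of astrocyte-like cells was 1155 and 3462 UMIs. Among the 16 astrocyte-like cells with at least 2000 UMIs in library 1 the median was 0.65, and under a stricter class gate (48 cells) 0.11. The part of depth and of nuclear RNA in the library 1 value was not tested.

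Ndufaf4, an assembly factor of complex I, was the 1 member at least 2-fold higher in astrocyte-like cells of both libraries. It had 197.2 and 113.5 CPM, against 42.6 and 40.4 CPM in microglia-like cells, 4.63 (3.14 to 6.77) and 2.81 times higher (1.70 to 4.39). Leading members of library 2 were Atp5g3 at 283.7 against 79.7 CPM, 3.56 times (2.62 to 4.73), and Ndufb2 at 204.2 against 59.9 CPM, 3.41 times (2.37 to 4.77). Cox8a followed, with 1112 against 406.3 CPM, 2.74 times (2.36 to 3.16).

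Neuron-like cells were lower than microglia-like cells in library 1 for most members. There, 60 of 83 were at least 2-fold lower, beside 22.8% of all genes, and 3 were at least 2-fold higher, beside 39.8%. The median was -1.49, beside 0.49 over all genes. In library 2, 16 of 86 were at least 2-fold lower, beside 31.9%, and 2 were higher, beside 24.9%, with a median of -0.26, beside -0.16. Of those lower in either library, 12 were lower in both: Sdhb, Sdhc and Sdhd of complex II, Ndufa1, Ndufa6, Ndufa7, Ndufa9, Ndufb4, Ndufc2 and Ndufaf8 of complex I, Atp5f1 of complex V, and Cox7a2l. How many of all genes were lower in both was not counted.

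The lowest ratios in library 1 were those of Ndufb4 and Atp5e. Ndufb4, a complex I subunit, had 9.39 CPM in neuron-like cells, against 101.3 CPM in microglia-like cells, a ratio of 0.0927 (0.0708 to 0.121). Atp5e, the small epsilon subunit of ATP synthase, had 14.97 CPM, against 154.3 CPM, 0.0970 (0.0784 to 0.120). In library 2 these genes had 31.3 and 277.6 CPM, against 120.1 and 330.4 CPM. The ratio of Atp5e was 0.840 there (0.655 to 1.06), and that of Ndufb4 0.260 (0.112 to 0.514). Uqcrb of complex III and Ndufa7 had ratios of 0.168 (0.139 to 0.205) and 0.171 (0.140 to 0.209) in library 1.

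Ndufaf4 went the other way, with 146.8 CPM in neuron-like cells of library 1, against 42.6 CPM, 3.45 times higher (2.70 to 4.45). Ndufs1, a catalytic core subunit of complex I, had 86.3 CPM, against 40.7, 2.12 times (1.65 to 2.76). In library 2, Ndufaf4 had 54.7 against 40.4 CPM, a ratio whose interval (0.735 to 2.30) includes 1. Ndufa10 was 1.43 (1.21 to 1.69) and 2.26 times higher (1.61 to 3.10) in neuron-like cells of libraries 1 and 2, with 143.0 and 160.3 CPM against 100.02 and 70.9 CPM. With at most 10% mitochondrial UMIs (33 neuron-like cells) the library 2 value turned to -0.16 on the log2 scale.

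Gene length differed alongside in the neuron comparison. In library 2, genes spanning under 10 kb had a median log2 ratio of -0.59 and those of 50 kb or more 0.43, and 57 of the 86 members span under 10 kb. In library 1 the medians were 0.58 and 0.97, while the 54 members under 10 kb had -1.62. In library 2, members under 10 kb had -0.25, above genes of that span, while the 27 members of 10 to 50 kb had -0.28, beside -0.18 over genes of that span. Genes of 10 to 50 kb had 0.15 in library 1 and its 27 members -1.36, so the gene medians there did not follow length in order. Choroid plexus markers summed to 10614 CPM in neuron-like cells of library 2, with 0 of 11 markers at 0, and to 409.3 CPM in library 1. The part of free choroid plexus RNA in the neuron-like values was not tested.

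Cox7a2l was at 39.3 and 144.6 CPM in neuron-like, 68.4 and 90.8 CPM in astrocyte-like, and 117.4 and 126.8 CPM in oligodendrocyte-like cells, against 287.7 and 294.8 CPM in microglia-like cells. It was the 1 member at least 2-fold lower in both libraries in astrocyte-like cells, and likewise in oligodendrocyte-like cells. Of the comparisons made, endothelial-like cells of library 2 gave the 1 interval above 1.

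Cox6a2, the heart and muscle form of subunit 6a, was rare throughout. Interneuron-like cells of library 1 had 7.69 CPM on 3 UMIs, against 4.94 CPM on 8 UMIs in microglia-like cells. The highest level in library 2 was that of neuron-like cells, 7.82 CPM on 2 UMIs, against 4.89 CPM on 55 UMIs, with a ratio of 1.60 to microglia-like cells and an interval of 0.189 to 6.06. In library 2 the 55 UMIs were in 43 of 2109 microglia-like cells. Astrocyte-like, oligodendrocyte-like, endothelial-like, pericyte or smooth muscle-like and choroid plexus-like cells of library 2 had 0 UMIs. At the floor of 3 UMIs, endothelial-like cells were at least 3.15-fold lower than microglia-like cells and choroid plexus-like cells at least 2.69-fold, and the depth of the others could not show a difference.

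Cells were also sorted by their own mitochondrial share. In microglia-like cells of library 2, nuclear members were at 9279 CPM (8993 to 9572) in cells under 2% mitochondrial UMIs. Levels were higher in each further bin, at 10340, 11069, 11907, 13008 and 14343 CPM (13059 to 15719) from 40% on. Malat1 moved the other way, at 4.37% in the first bin and 2.34% in the last. Ttr, the leading choroid plexus RNA, was at 0.188% in the first bin and at 0.382%, 0.790% and 0.899% in the last 3, and its part in the level was not tested. Median depth was 5576 UMIs in the first bin and 1721.5 in cells of 20 to 40%. In neuron-like cells of library 1 the level was 3496 CPM under 2% and 8593 CPM at 20 to 40%, with Malat1 at 16.0% and 9.41%.

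Choroid plexus-like cells of library 2 were lower in each higher bin. They had 62168 CPM (61569 to 62771) at 10 to 20% and 57259 CPM (56691 to 57831) at 20 to 40%, with 83 and 58 cells. Bins of under 20 cells, not plotted, had 114575, 95378 and 69162 CPM below 10% (9, 8 and 17 cells) and 31578 CPM from 40% on (11 cells). Ttr took 32.7% and 23.9% of nuclear-encoded UMIs in cells of 10 to 20% and 20 to 40%. In library 1 the level was 50702 CPM (49192 to 52246) at 5 to 10% and 51633 CPM (50477 to 52809) at 10 to 20%, with overlapping intervals. Endothelial-like cells had 17815 CPM at 5 to 10% and 15611 CPM at 10 to 20%. Neuron-like cells of library 2 had no steady order from 5% on, with 11591, 9994, 9643 and 11952 CPM. Under 2% and at 2 to 5% they had 3535 and 4872 CPM, on 3 and 8 cells. Malat1 was at 10.3% and 10.5% in those cells, against 3.09% at 5 to 10% and 1.81% from 40% on.

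**Figure D5:**
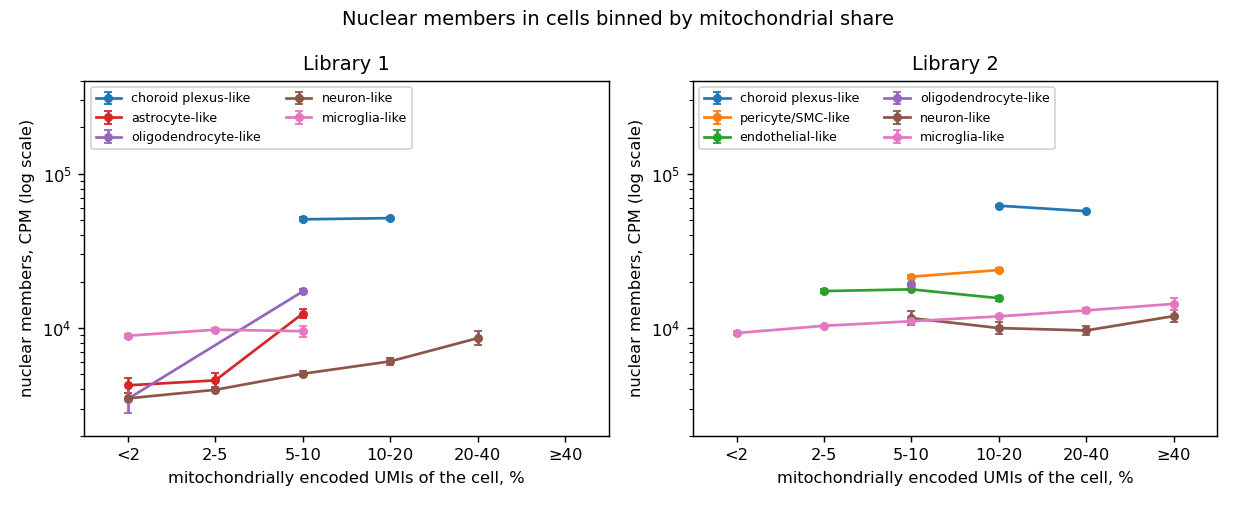
Level of the nuclear members (y axis, CPM, log scale) in cells of each class binned by the cell's own share of mitochondrially encoded UMIs (x axis, percent), library 1 left and library 2 right, bins of at least 20 cells. Bars are exact 95% counting intervals; microglia-like cells of library 2 lie at 9279 CPM under 2% and 14343 CPM from 40% on.

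Neighbouring pathways were read from gene lists, each gene again as class over microglia-like cells. The shares over all genes in choroid plexus-like cells, 10.4% and 17.1% higher and 52.5% and 39.4% lower, stand beside every count below for this class. Electron carrier genes went with the members in choroid plexus-like cells. Of those tested, 4 of 4 in library 1 and 5 of 5 in library 2 were at least 2-fold higher, with medians of 2.68 and 2.56. These counts include Cyc1, a complex III subunit whose symbol the member rule does not match. Cycs, cytochrome c, had 345.2 and 481.9 CPM, against 56.2 and 71.1 CPM, and Etfb, a flavoprotein of fatty acid oxidation, 514.2 and 512.8 CPM, against 69.1 and 71.3 CPM. Citric acid cycle and pyruvate dehydrogenase genes were higher in part, 7 of 14 and 8 of 15, with 0 lower and medians of 1.00 and 1.07.

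Carriers and import genes were mixed. Of the inner membrane carriers 3 of 5 and 4 of 6 were higher in choroid plexus-like cells, among them Slc25a4, an ATP and ADP exchanger, with 833.7 and 799.3 CPM, against 153.1 and 127.3 CPM. Outer membrane and import genes had 3 of 7 higher in each library. Assembly genes of complexes IV and V had 3 of 9 and 4 of 16 higher, with medians of 0.20 and -0.03, and the second count is near the share over all genes.

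Regulators of mitochondrial DNA and its transcription were near the share over all genes for higher levels. In choroid plexus-like cells 1 of 7 was higher and 2 were lower in library 1, and 2 of 15 were higher and 4 lower in library 2, with medians of -0.51 and -0.17. Nrf1 had 0 UMIs in library 1 and 6.68 CPM in library 2, against 37.7 and 29.3 CPM in microglia-like cells, and is 1 of the lower genes in both. Ppargc1a, the coactivator of mitochondrial biogenesis, had 29.4 and 55.8 CPM, against 6.79 and 0.711 CPM. Its library 1 values rest on too few UMIs to pass the minimum. In astrocyte-like cells Ppargc1a had 161.0 and 153.2 CPM, and the second value rests on too few UMIs to pass the minimum.

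In neuron-like cells the citric acid cycle genes had higher medians than the members, whose medians were -1.49 and -0.26. Their median was 0.29 in library 1, below the 0.49 over all genes. There 1 of 15 was higher and 2 were lower, beside 39.8% and 22.8% of all genes. In library 2 their median was 0.41, beside -0.16, with 4 higher and 1 lower, beside 24.9% and 31.9%. Idh3b, a subunit of isocitrate dehydrogenase, had 162.7 CPM in library 1, against 56.8 CPM, while Suclg2, the GTP-forming succinyl-CoA ligase subunit, had 1.48 CPM, against 58.7 CPM. Outer membrane and import genes were lower in library 1, 5 of 7, beside 22.8% of all genes, with a median of -1.32, beside 0.49. In library 2 they had a median of 0.07, beside -0.16.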

How the data were processed

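Members, gene lists and comparisons were chosen with earlier results of these data known. Per the submitters' processing notes, the deposited matrices were made with Cell Ranger 3.0.1 on GRCm38.p5; they hold UMI counts per gene and barcode, not normalized by the authors, and no barcode had under 500 UMIs. The files of library 2 carry another sample number than its title. Free RNA was not removed.

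Cells with at least 1000 UMIs and 500 genes were kept. A cell joined the class with the highest share of its markers detected, if it had at least 3 markers and 0.3 of the list and the next class reached at most 0.5 of that share. Neuron types needed 2 markers. Erythrocyte-like cells had at least 50% haemoglobin UMIs among nuclear-encoded ones. These gate limits were set after the files were seen. Clusters (scanpy 1.11.5, members left out) had the same majority class for 99.3% and 97.4% of gated cells. Scrublet marked 753 and 195 cells as doublets, which were kept, and left out as an alternative.

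UMIs were summed over the cells of a class. Mitochondrial members are percent of all UMIs, with exact binomial (Clopper-Pearson) intervals, and nuclear members are CPM of nuclear-encoded UMIs, with exact Poisson intervals. Ratios printed as times higher are plain CPM ratios with exact conditional intervals, and log2 ratios have 1 CPM added. Intervals are 95%, for counting error only, and the floor is 3 counts. Comparisons need 50 cells in the class and 50 UMIs per gene. UMIs mark 3' ends, so no length scaling was made, and a level is compared between classes, not between genes, except to choose the names below. Processed pseudogenes of many members exist, and reads shared with them could not be checked. Named are all mitochondrial members, the 10 nuclear members of highest level in microglia-like cells, up to 5 members at each end of a comparison ranked by the interval bound nearest 1 (at least 20 UMIs in a class), the isoform pairs, and list genes past 2-fold; other names are members or list genes chosen after their values were seen. Gene IDs of all 105 members matched GENCODE vM21 with the same symbol. The comparison was also run on counts simulated from microglia-like levels with counting error only. Those counts held no spread between cells and no added free RNA, so that run checks the calculation alone.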

Additional observations from a re-analysis of the deposited data

Results flagged for a closer look

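Cells that received no class were outside every comparison. In library 2, 468 such cells had 12.9% of their UMIs in the mitochondrial members and 37791 CPM in the nuclear members, against 5.68% and 10798 CPM in microglia-like cells. Ttr took 9.61% of their nuclear-encoded UMIs. In library 1, 1457 such cells had 3.37% and 7340 CPM, against 2.46% and 9487 CPM.

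The mitochondrial ribosomal RNAs mt-Rnr1 and mt-Rnr2 are parts of the mitochondrial ribosome and no members. They held 0.178% of all UMIs in library 1 and 1.09% in library 2, over cells that passed the depth limits.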

How the results depend on the processing

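With 1 pool per library, biological spread is unknown, and depth limits rare forms: in classes of under 100 cells a member below about 10 CPM rests on a few UMIs. No paired analysis was possible because neither library has a group. Choroid plexus-like cells had the highest and neuron-like cells the lowest nuclear level among the classes compared under all alternatives. Of 110 recomputed median log2 ratios, 101 stayed between the medians of the single members' lower and upper bounds, and 9 moved. Those limits describe a typical single member, not the counting error of a median. For oligodendrocyte-like cells of library 1 they were -0.05 and 1.00, so staying within them is a loose mark. Oligodendrocyte-like cells moved to -0.46 (library 1, at least 500 UMIs), and with every cell weighted alike to -0.14 and 0.34 (libraries 1 and 2), when endothelial-like cells gave 0.40. Astrocyte-like cells of library 1 moved to 0.65 (at least 2000 UMIs) and 0.11 (stricter gate). Choroid plexus-like cells of library 2 moved to 2.65 and 2.39 with at most 10% and 20% mitochondrial UMIs, and to 1.96 with all UMIs as denominator. The cause was not tested.

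Mitochondrial shares moved in 82 of 104 recomputed values, by construction where the share itself is limited. Microglia-like cells of library 1 had 2.37% (at most 10% mitochondrial UMIs), 2.38% (at least 2000 UMIs, and doublets left out), 2.91% (at least 500 UMIs), 2.55% (equal weights) and 2.43% (gate and cluster alike). In library 2 they had 4.22% and 5.04% (limits of 10% and 20%), 5.29% (2000 UMIs), 6.25% (500 UMIs), 5.49% (stricter gate) and 7.37% (equal weights). Choroid plexus-like cells of library 1 had 6.38% and 10.5% (limits), 11.4% (2000 UMIs), 12.4% (stricter gate), 10.2% (equal weights) and 11.5% (gate and cluster alike). In library 2 they had 5.13% and 11.1% (limits), 20.3% (500 UMIs), 20.2% (stricter gate), 19.9% (doublets left out), 17.8% (equal weights) and 19.3% (gate and cluster alike). With at most 10%, neuron-like cells were lowest and oligodendrocyte-like cells highest in library 2 among the classes set against microglia-like cells.

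Of 5060 recomputed single-gene ratios, 8 that were at least 2-fold in the main run changed sign. Sign changes of ratios under 2-fold were not counted. In astrocyte-like cells of library 1 with at least 2000 UMIs (16 cells), Atp5e was at 0.44, Atp5j 0.26, Ndufa2 0.12, Ndufb4 0.53, Ndufb6 0.26 and Uqcrh 0.49, and Ndufb4 was at 0.38 under the stricter gate (48 cells). Ndufa10 in neuron-like cells of library 2 was at -0.16 with at most 10% mitochondrial UMIs (33 cells). The cause was not tested.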

Other observations

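Of the 5 classes with at least 50 cells in both libraries, 5 had a higher mitochondrial share and 5 a higher nuclear member level in library 2. Malat1 took a higher part of nuclear-encoded UMIs in library 1 in each of the 5. Median depth was higher in library 2 in 4, neuron-like cells being the exception. With 1 pool per library and no label for the treatment, mice, depth and dissociation cannot be told apart in these values.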
